A study of Mus musculus with 12 samples.

Results

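The genes described here sense DNA damage, signal it or repair it. There were 31, chosen by name from the deposited count table of 22584 genes, and all 31 were found and passed the filter on low counts that left 15004 genes for testing. They comprise the kinases at the head of the damage response, the checkpoint kinases, the adaptors and ubiquitin ligases that gather at breaks, the complexes of end joining, homologous recombination and the Fanconi pathway, and genes of base excision, nucleotide excision and mismatch repair. RNA came from cardiomyocytes isolated from hearts of wild-type C57BL6 mice, in 4 groups of 3 libraries. The sham saline group had a sham operation for 12 weeks and saline injections. Mice of the sham JV001 group had the same operation for 12 weeks and were injected with JV001. The CKD saline group received AngII, a high salt diet and uninephrectomy (removal of 1 kidney) with saline injections, and the labels give no duration for it. In the CKD JV001 group the same 3 interventions lasted 12 weeks and JV001 was injected. The labels do not say what JV001 contains, nor its dose, nor the animals' age. The series title places the study in telomere recapping by gene therapy for cardiorenal syndrome. Whether the 3 libraries of a group were separate animals is not said in the labels, and a p-value here reflects no more than the spread among those libraries, possibly a technical one.

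Chromosome ends and DNA breaks present the same problem to a cell. Shelterin, the protein cap on telomeres, holds back the kinases ATM and ATR, which otherwise read an exposed end as a break and pass the signal through CHK1, CHK2 and p53. Breaks are then joined directly, with the Ku dimer, DNA-PK and ligase IV, or copied from a sister chromatid, with BRCA1 and BRCA2. Recombination works mainly in dividing cells, and adult cardiomyocytes rarely divide. Much of this pathway is controlled by phosphorylation and ubiquitin, which RNA counts do not show.

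Several of these genes are textbook targets of E2F, the transcription factors that switch on genes for DNA replication. Promoter windows are shown for the genes that hold an E2F-type word, a feature that the choice of genes did not use. A search of the 250 bases before each gene's start, on both strands, for TTTCCCGC, TTTCGCGC, TTTGCCGC or TTTGGCGC found a match in 5 of the 26 repair genes with a promoter in the RefSeq table (19.2%), against 1.86% of all 32851 promoters and 3.03% of the 15116 promoters of tested genes. A match describes the letters and does not show that a factor binds there. The 60-base windows below are from RefSeq, build GRCm38.p6, on the + strand, 5′ to 3′, with the match in capitals. They cover chr5:150522427-150522486 for Brca2, chr5:110839805-110839864 for Chek2, chr17:35841438-35841497 for Mdc1, chr9:103305172-103305231 for Topbp1 and chr15:82016297-82016356 for Xrcc6.
Brca2: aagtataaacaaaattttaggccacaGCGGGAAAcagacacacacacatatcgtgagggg
Chek2: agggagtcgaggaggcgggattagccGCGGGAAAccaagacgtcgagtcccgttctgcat
Mdc1: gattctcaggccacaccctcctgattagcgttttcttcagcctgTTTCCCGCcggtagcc
Topbp1: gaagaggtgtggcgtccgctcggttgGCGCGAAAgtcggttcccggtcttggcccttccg
Xrcc6: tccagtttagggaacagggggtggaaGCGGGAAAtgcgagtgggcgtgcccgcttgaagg
In Brca2, Chek2, Topbp1 and Xrcc6 the word lies on the opposite strand, and in Mdc1 it lies on the strand of the gene. These 5 genes had no common direction, with log2 differences in CKD JV001 against sham JV001 of -0.65 for Brca2, 1.09 for Chek2, 0.55 for Mdc1, 0.01 for Topbp1 and -0.59 for Xrcc6, none past the threshold.

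Before the results, 2 libraries have to be set apart. Markers of ventricular cardiomyocytes (10 genes, none at 0 in any library) averaged 12.29 to 12.76 log2 CPM (counts per 1e6 counts, with TMM scaling) with saline and 12.41 to 12.58 with JV001 in sham mice, but 11.78 in CKD saline library 3 and 10.71 in CKD JV001 library 3. The other CKD saline libraries were at 12.62 and 12.62, and the other CKD JV001 libraries at 11.91 and 11.93. Summed, these markers made 68420 to 94990 CPM with saline and 74710 to 82240 with JV001 in sham mice, and 47230 to 85350 with saline and 23160 to 52410 with JV001 in CKD mice, so the labelled cell type was present in every library. Fibroblast markers (10 genes, none at 0) ran from 3.35 to 4.78 log2 CPM with saline and from 4.07 to 5.03 with JV001 in sham mice, and stood at 3.93, 3.88 and 5.86 in libraries 1 to 3 of CKD saline and at 5.99 to 6.54 in CKD JV001. Their summed level was 163 to 552 CPM with saline and 285 to 574 with JV001 in sham mice, and 260 to 992 with saline and 1148 to 1574 with JV001 in CKD mice. Endothelial markers (10 genes, none at 0) were at 5.52 to 7.28 log2 CPM with saline and 6.79 to 7.02 with JV001 in sham mice, and at 6.47, 6.45 and 8.23 with saline and 7.98 to 8.07 with JV001 in CKD mice. Their summed level was 540 to 1886, 1454 to 1672, 1063 to 3734 and 2992 to 3442 CPM in the same order. Macrophage markers (10 genes, none at 0) summed to 24.9 to 182 CPM in the sham libraries, to 70.2, 64.3 and 318 in CKD saline and to 307 to 695 in CKD JV001. Neutrophil markers (10 genes, 8 of them tested, up to 7 at 0 in a library) were summed over all 10. They reached at most 17.2 CPM in 10 libraries, and 83.6 and 339 in the third libraries of CKD saline and CKD JV001. CKD saline library 3 therefore had marker levels like those of CKD JV001, and its part in each difference was measured by leaving it out. Bulk RNA cannot separate fewer cells of a type from less RNA per cell. Library totals ran from 25233561 to 37000337 counts, of which the 31 genes took 0.036 to 0.0426%.

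**Figure D1:**
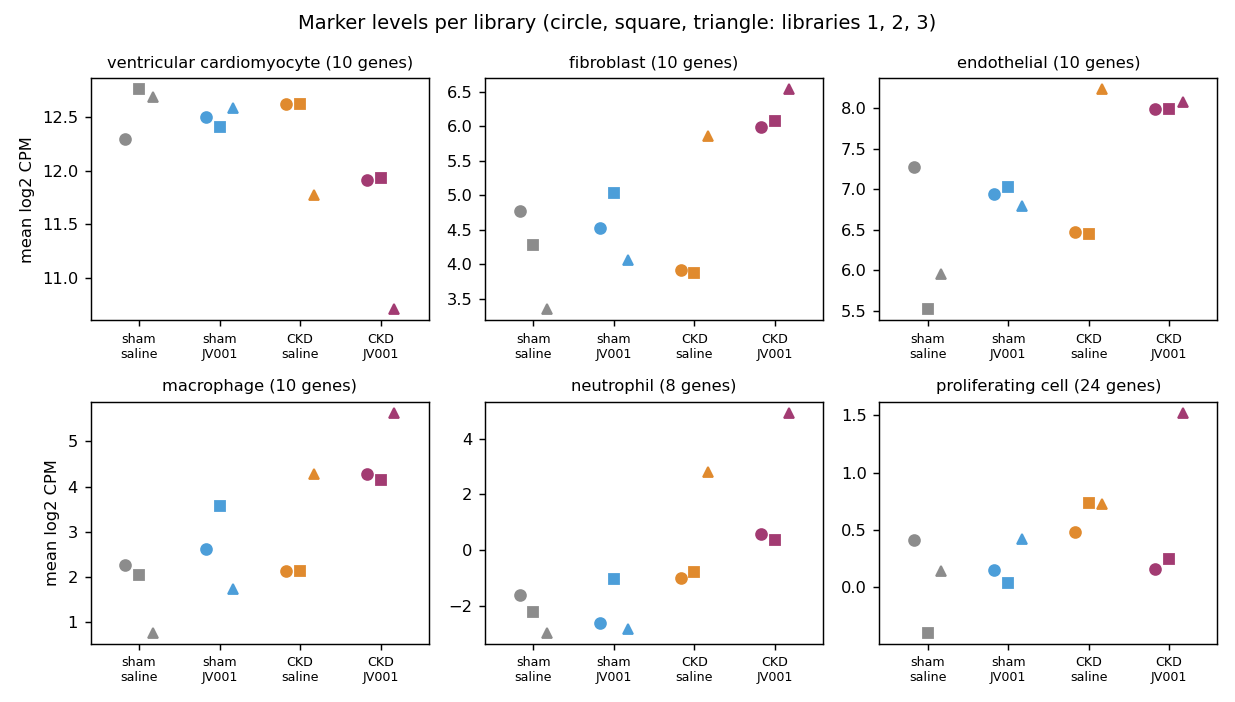
Mean log2 CPM of marker lists in each of the 12 libraries, with 1 point per library and groups by colour. Ventricular markers are lowest in CKD JV001 library 3 (10.71), and CKD saline library 3 stands with the CKD JV001 libraries for fibroblast and endothelial markers.

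The repair genes were expressed at low to moderate levels. Levels between genes are given in FPKM, the deposited reads per length and depth. Mean FPKM over the 12 libraries was under 0.5 for 6 genes, between 0.5 and 5 for 21 and over 5 for 4, and the median gene of the list was at 1.81 against 2.83 for all tested genes. Pcna, the sliding clamp of replication and repair, stood highest at 23.2 ± 4.42 (SD over 12 libraries). Parp1, the sensor of nicks and breaks, followed at 14.1 ± 2.85, then Ercc1, a nuclease subunit, at 13.4 ± 4.71, and Xrcc5, the larger Ku subunit, at 6.93 ± 2.00. Of these neighbours, Pcna and Parp1 differed by more than their SDs together, while Parp1 and Ercc1, and Ercc1 and Xrcc5, did not. At the other end were the genes of recombination and the replication checkpoint, namely Fanca (0.259), Blm (0.164), Brca2 (0.121), Chek1 (0.0753), Brca1 (0.0647) and Fancd2 (0.0525). Fancd2 and Chek1 reached 10 counts in 4 libraries each and Brca1 in 8, so their differences are poorly measured.

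**Figure D2:**
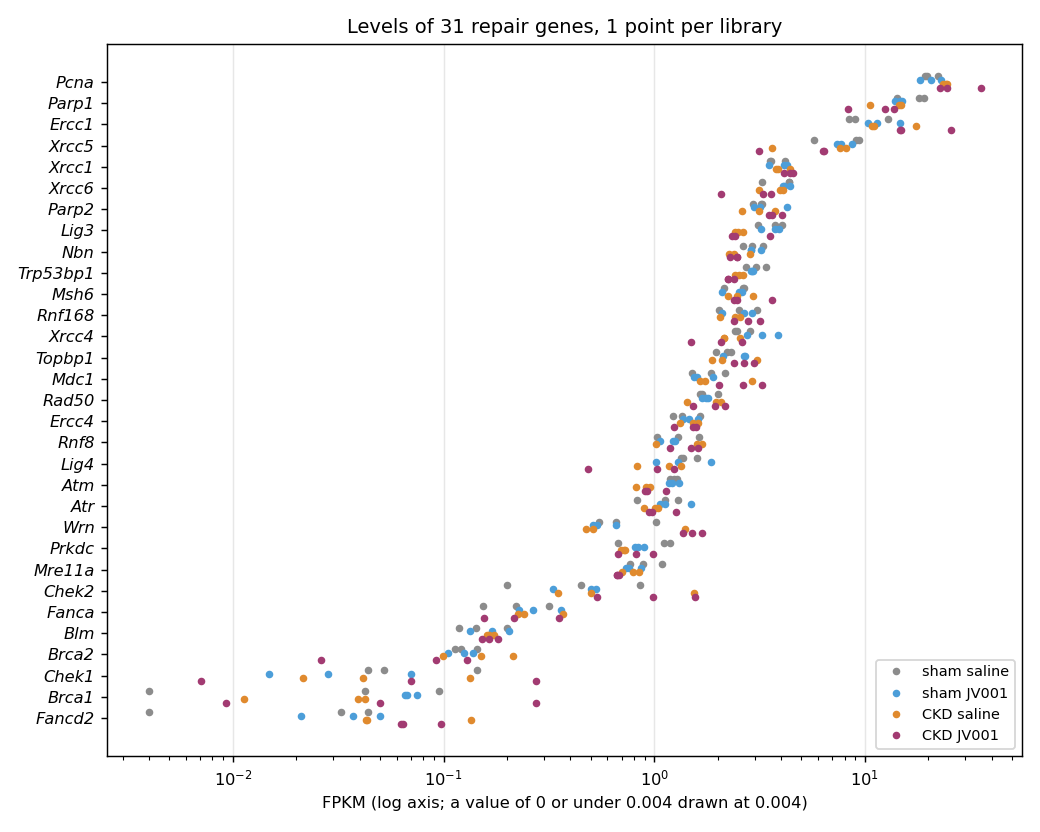
FPKM of each of the 31 genes on a log axis, ordered by mean, with 1 point per library coloured by group; values of 0 or under 0.004 are drawn at 0.004. Pcna, Parp1, Ercc1 and Xrcc5 lie above a mean of 5 FPKM and the 6 genes from Fanca to Fancd2 lie under 0.5.

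No repair gene passed an adjusted p of 0.05 in any comparison by edgeR's quasi-likelihood test with Benjamini-Hochberg adjustment over 15004 genes. The share of all genes that passed was 0% for CKD saline against sham saline, 0% for CKD JV001 against CKD saline, 0% for sham JV001 against sham saline, 0.02% (3 genes) for CKD JV001 against sham JV001 and 0% for the interaction of CKD and JV001. For CKD against sham over both injections, a contrast chosen after the data were seen, it was 0.473% (71 genes), with none of the 31 among them. The typical standard error (SE) of a log2 fold change was 0.21 in the 4 comparisons of single groups (median over the 31 genes). At an unadjusted p under 0.05, edgeR gave 743, 2707, 426, 4120, 567 and 4158 genes in the same order. The sections that follow give each gene's values by role and, where a difference stood out among the 31, its size.

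**Figure D3:**
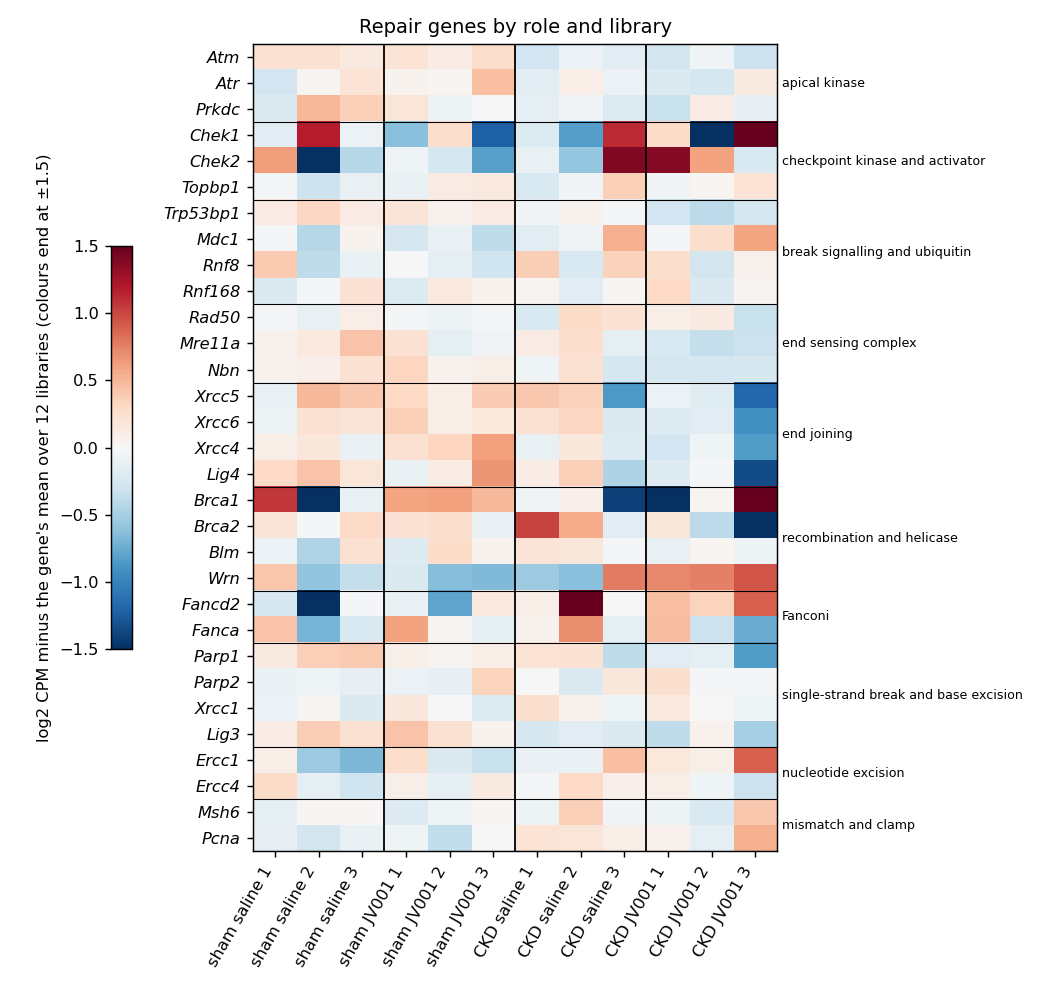
Log2 CPM of each gene minus its mean over the 12 libraries, with genes grouped by role in rows and libraries in columns; colours end at 1.5 on either side. The Atm row lies below its mean in all 6 CKD libraries (-0.314 to -0.053) and above it in all 6 sham libraries (0.114 to 0.264). CKD JV001 library 3 holds the lowest value for 11 genes and the highest for 7 (18 of 31, or 58.1%, against 61.4% of all tested genes).

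The 3 kinases at the head of the response are ATM and DNA-PK, which answer to breaks, and ATR, which answers to single-stranded DNA. In CPM, Atm had the clearest separation of the list. It was at 15.5, 15.4 and 14.6 CPM (libraries 1, 2 and 3, an order kept throughout) with saline and 15.2, 14.3 and 15.8 with JV001 in sham mice, and 10.8, 12.4 and 11.8 with saline and 10.9, 12.7 and 10.6 with JV001 in CKD mice. Every CKD library lay below every sham library. In the deposited FPKM the gap was narrow, at 1.14 in CKD JV001 library 2 against 1.17 in sham JV001 library 1. The difference was -0.38 on the log2 scale in CKD saline against sham saline (SE 0.14, edgeR adjusted p = 0.941) and -0.40 in CKD JV001 against sham JV001 (SE 0.14, adjusted p = 0.119). Pooled over both injections it was -0.39 (95% interval -0.61 to -0.18, edgeR adjusted p = 0.0762), which missed the threshold. Over the alternative settings this pooled difference ran from -0.44 to -0.2. Without the third library of both CKD groups it was -0.36 (adjusted p = 0.0654), and DESeq2 placed it past the threshold at -0.37 (adjusted p = 0.0151). DESeq2 called 1971 of all genes in that contrast, against 71 by edgeR. The JV001 differences of Atm were -0.03 in CKD mice (95% interval -0.34 to 0.27) and -0.01 in sham mice (-0.31 to 0.29).

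Atr was at 10.3, 13.1 and 14.6 CPM with saline and 13.2, 12.9 and 17.4 with JV001 in sham mice, and 11.3, 13.6 and 11.9 with saline and 10.9, 10.5 and 13.9 with JV001 in CKD mice. The 4 groups overlapped, and the largest difference was -0.30 in CKD JV001 against sham JV001 (SE 0.19, edgeR adjusted p = 0.309). Prkdc, the catalytic subunit of DNA-PK, was at 9.38, 15.4 and 14.0 CPM with saline and 12.4, 10.3 and 10.9 with JV001 in sham mice, and 9.88, 10.6 and 9.49 with saline and 8.64, 11.9 and 10 with JV001 in CKD mice. Sham saline library 1 was as low as the CKD saline libraries, and the difference between those groups was -0.37 (SE 0.20, edgeR adjusted p = 0.941). So 1 of the 3 kinases separated all CKD from all sham libraries, and the other 2 did not. Of all tested genes, 1.51% were lower and 0.64% higher in every CKD library than in every sham library.

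Chek1 encodes the kinase that ATR activates, Chek2 the one that ATM activates, and Topbp1 the platform that switches ATR on. Chek1 had only 6, 22 and 8 counts with saline and 4, 10 and 2 with JV001 in sham mice, and 5, 3 and 14 with saline and 9, 1 and 36 with JV001 in CKD mice. In CPM these were 0.193, 0.583 and 0.207, then 0.124, 0.280 and 0.0606, then 0.185, 0.099 and 0.556, then 0.285, 0.0265 and 1.06. A count of 3 corresponds to 0.0777 to 0.119 CPM, so several Chek1 values lie near that limit, and no difference was detectable at this depth. Its 95% interval in CKD JV001 against sham JV001 ran from -0.92 to 3.97 on the log2 scale.

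Chek2 was at 4.05, 0.875 and 1.92 CPM with saline and 2.47, 2.16 and 1.45 with JV001 in sham mice, and 2.41, 1.72 and 6.87 with saline and 6.81, 3.98 and 2.20 with JV001 in CKD mice. The high values came from CKD saline library 3 and CKD JV001 library 1, and within both CKD groups the spread exceeded the difference of 0.24 between them (SE 0.64, edgeR adjusted p = 0.82). Topbp1 was at 13.0, 10.7 and 12.2 CPM with saline and 12.3, 14.4 and 14.6 with JV001 in sham mice, and 11.3, 12.8 and 17 with saline and 12.9, 13.4 and 15.2 with JV001 in CKD mice, all groups overlapping. In sham JV001 against sham saline it had 1 of the 3 smallest p values of the list, with 0.20 (SE 0.18, edgeR adjusted p = 0.9997).

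Trp53bp1 encodes the adaptor that shields break ends and steers them to end joining. It was at 31.1, 35.6 and 31.3 CPM with saline and 32.8, 29.8 and 31.2 with JV001 in sham mice, and 27.8, 29.8 and 28.3 with saline and 23.5, 21.8 and 23.8 with JV001 in CKD mice. The CKD libraries were below the sham libraries, CKD saline library 2 and sham JV001 library 2 being equal as rounded here. The CKD JV001 libraries were below the CKD saline libraries, with a gap in CPM. In the deposited FPKM that gap was narrow, from 2.40 in CKD JV001 library 3 to 2.41 in CKD saline library 1. The difference was -0.44 in CKD JV001 against sham JV001 (SE 0.12, edgeR adjusted p = 0.0956), the smallest adjusted p of the list in that comparison. It was -0.31 in CKD JV001 against CKD saline (SE 0.12, edgeR adjusted p = 0.276), and -0.37 to -0.1 there over the alternative settings. In CKD saline against sham saline it was -0.19 (SE 0.12, edgeR adjusted p = 0.941), and pooled over both injections -0.32 (95% interval -0.50 to -0.13, edgeR adjusted p = 0.0821). The call in CKD JV001 against sham JV001 depended on the fit. Without CKD saline library 3 the adjusted p was 0.0486 at -0.43, without the third library of both CKD groups 0.0288 at -0.47, and by DESeq2 0.0365 at -0.42. In the same order these settings called 1612, 1433 and 1768 of all genes, against 3 by edgeR from all libraries. Gene models (GENCODE, GRCm38) give Trp53bp1 22.1% of its exon length in common with Tubgcp4 on the opposite strand. The strand setting of the counting is not given, so whether reads in that stretch were told apart is not known.

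The other genes of this step are Mdc1, the adaptor on phosphorylated histone beside a break, and the ubiquitin ligases Rnf8 and Rnf168, which mark that chromatin. Mdc1 ranged from 11.2 to 22.7 CPM, with means of 13.9 ± 2.38 (saline) and 12.7 ± 1.18 (JV001) in sham mice and 16.6 ± 4.61 (saline) and 18.6 ± 3.92 (JV001) in CKD mice (SD, n = 3). All CKD JV001 libraries lay above all sham JV001 libraries, by 0.55 on the log2 scale (SE 0.23, edgeR adjusted p = 0.159). Its highest values were in the third library of both CKD groups, and without these the difference was 0.37 (edgeR adjusted p = 0.181). Rnf8 ranged from 2.10 to 3.63 CPM and Rnf168 from 9.70 to 13.9, with overlapping groups. Rnf8 shares 26.2% of its exon length with the same-strand model Gm28043, which could split its reads.

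Mre11a, Rad50 and Nbn encode the complex that binds break ends, begins their resection and recruits ATM. Mre11a, the nuclease, was at 9.06, 9.63 and 11.7 CPM with saline and 10.1, 7.94 and 8.36 with JV001 in sham mice, and 9.48, 10.4 and 7.86 with saline and 7.38, 6.76 and 6.93 with JV001 in CKD mice. The 3 CKD JV001 libraries were the 3 lowest of the 12. The difference was -0.40 against CKD saline (SE 0.18, edgeR adjusted p = 0.277) and -0.33 against sham JV001 (SE 0.18, edgeR adjusted p = 0.247), and -0.20 in sham JV001 against sham saline (SE 0.18, edgeR adjusted p = 0.9997).

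Rad50, the structural partner, was at 9.06, 8.54 and 9.95 CPM with saline and 9.15, 8.75 and 9.18 with JV001 in sham mice, and 7.92, 11.2 and 10.8 with saline and 9.82, 10.2 and 7.34 with JV001 in CKD mice. Both CKD groups spread around the sham values, and the pooled difference was 0.07 (95% interval -0.23 to 0.36). Nbn, the subunit that docks ATM, ranged from 16.1 to 24.1 CPM. Its CKD JV001 mean of 16.2 ± 0.156 lay below all sham JV001 libraries (21.6 ± 2.27, SD, n = 3), by -0.41 on the log2 scale (SE 0.15, edgeR adjusted p = 0.134). Of the complex, Mre11a and Nbn were thus lower in all CKD JV001 than in all sham JV001 libraries without passing the test, and Rad50 was not. Such a separation was common, since 20.1% of all tested genes were lower and 22.9% higher without overlap in that comparison.

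Xrcc5 and Xrcc6 encode the Ku dimer that clamps onto a broken end, and Xrcc4 and Lig4 the ligase that seals it. Xrcc6 was at 21.0, 26 and 25.3 CPM with saline and 28.3, 23.8 and 24.8 with JV001 in sham mice, and 25.9, 27.4 and 19.0 with saline and 19.4, 19.8 and 11.7 with JV001 in CKD mice. CKD JV001 library 3 was the lowest, and CKD saline library 3 was as low as the other CKD JV001 libraries. The difference was -0.51 in CKD JV001 against CKD saline (SE 0.22, edgeR adjusted p = 0.276) and -0.59 against sham JV001 (SE 0.22, edgeR adjusted p = 0.13), while CKD saline and sham saline differed by 0.00 (95% interval -0.47 to 0.47). CKD saline library 3 had the lowest Xrcc6 of its group (19.0 CPM), so leaving it out widens the difference between the CKD groups. Without it, CKD JV001 against CKD saline passed, at -0.67 (edgeR adjusted p = 0.0485). That comparison passed also without the third library of both CKD groups, at -0.47 (edgeR adjusted p = 0.045). In the same order these settings called 3287 and 3043 of all genes, against 0 from all libraries. The difference in CKD JV001 against CKD saline passed as well in a fit of the CKD groups alone that paired libraries of the same number. There it was -0.51 (edgeR adjusted p = 0.043). The pairing was read from these same data and is not given in the labels, so this p-value cannot count as separate support. That paired fit called 2850 of 14289 genes and no other repair gene, with Parp1 at -0.38 (adjusted p = 0.0574) and Wrn at 0.95 (adjusted p = 0.0719). Xrcc5 ranged from 8.45 CPM in CKD JV001 library 3 and 10.6 in CKD saline library 3 to 26.8, and its difference in CKD JV001 against sham JV001 was -0.67 (SE 0.35, edgeR adjusted p = 0.223). Without the third library of both CKD groups that difference was -0.41 (edgeR adjusted p = 0.16).

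Xrcc4 was at 5.56, 5.89 and 4.90 CPM with saline and 6.12, 6.56 and 8.06 with JV001 in sham mice, and 4.85, 5.90 and 4.53 with saline and 4.27, 4.99 and 2.91 with JV001 in CKD mice. Sham JV001 was above sham saline without overlap, by 0.34 (SE 0.24, edgeR adjusted p = 0.9997), and above CKD JV001, which was lower by -0.77 (SE 0.24, edgeR adjusted p = 0.11). DESeq2 gave an adjusted p of 0.0357 for the latter, at -0.75, and called 1768 of all genes there, against 3 by edgeR. Lig4 was at 6.04, 6.60 and 5.57 CPM with saline and 4.58, 5.30 and 7.79 with JV001 in sham mice, and 5.33, 6.30 and 3.54 with saline and 4.27, 4.80 and 1.91 with JV001 in CKD mice. Its lowest values were the third libraries of the CKD groups, and the difference in CKD JV001 against sham JV001 was -0.68 with them (SE 0.35, edgeR adjusted p = 0.222) and -0.38 without (edgeR adjusted p = 0.331). All 4 end joining genes had their lowest value in CKD JV001 library 3, the library with the lowest ventricular markers (10.71 log2 CPM) and the highest fibroblast markers (6.54), which is also the highest or the lowest library for 61.4% of all tested genes, and the part of cell content in their differences was not tested. Xrcc6 shares 8.5% of its exon length with Desi1 and Xrcc4 7.3% with Tmem167, both on the opposite strand.

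Of the recombination genes, Brca1 was near the detection limit. It promotes resection of break ends and had 22, 1 and 11 counts with saline and 16, 18 and 15 with JV001 in sham mice, and 8, 10 and 2 with saline and 2, 12 and 61 with JV001 in CKD mice. In CPM these were 0.707, 0.0265 and 0.285, then 0.495, 0.505 and 0.454, then 0.296, 0.330 and 0.0794, then 0.0633, 0.318 and 1.79. CKD JV001 library 3 alone set the difference of 1.60 from CKD saline (SE 1.15, edgeR adjusted p = 0.391), which was -0.29 without that library (edgeR adjusted p = 0.931). The same library had the highest proliferating-cell markers (24 tested genes), at 1.52 log2 CPM against -0.40 to 0.73 in the other 11 (at most 1 of the 24 at 0 in a library), and their part in the Brca1 value was not tested.

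Brca2, which loads the recombinase onto DNA, was at 1.54, 1.33 and 1.66 CPM with saline and 1.58, 1.60 and 1.24 with JV001 in sham mice, and 2.78, 2.01 and 1.19 with saline and 1.52, 1.01 and 0.293 with JV001 in CKD mice. CKD saline and CKD JV001 overlapped, at a difference of -1.08 (SE 0.52, edgeR adjusted p = 0.284), which was -1.62 without CKD JV001 library 1 and -0.66 without CKD JV001 library 3. Blm, a helicase that undoes recombination intermediates, kept within 0.690 to 1.18 CPM.

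Wrn, the helicase and exonuclease mutated in Werner syndrome and active at telomeres, had the largest difference among the genes with an unadjusted p under 0.05. It was at 7.33, 3.61 and 4.25 CPM with saline and 4.70, 3.50 and 3.42 with JV001 in sham mice, and 3.74, 3.53 and 9.45 with saline and 9.09, 9.31 and 10.6 with JV001 in CKD mice. The 4 highest values were the CKD JV001 libraries and CKD saline library 3, which are also the 4 libraries with the lowest ventricular and highest fibroblast and endothelial markers, and sham saline library 1, the next in Wrn, had the highest endothelial markers of the sham libraries (7.28 log2 CPM). The part of those cells in the Wrn values was not tested. The difference was 1.32 in CKD JV001 against sham JV001 (SE 0.39, 95% interval 0.46 to 2.18, edgeR adjusted p = 0.105), 0.80 in CKD JV001 against CKD saline (SE 0.39, edgeR adjusted p = 0.286), 0.14 in CKD saline against sham saline (SE 0.39, edgeR adjusted p = 0.9948, and -0.45 without CKD saline library 3 but 0.51 without sham saline library 1) and -0.38 in sham JV001 against sham saline (SE 0.39, edgeR adjusted p = 0.9997). Its interaction of CKD and JV001 was 1.18 (SE 0.55, edgeR adjusted p = 0.84), the smallest p of the list there.

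Leaving out CKD saline library 3 placed Wrn past the threshold by edgeR in both comparisons of CKD JV001, at 1.40 against CKD saline (adjusted p = 0.0326) and 1.33 against sham JV001 (adjusted p = 0.0261). CKD saline library 3 had the highest Wrn of its group (9.45 CPM, against a lowest of 3.53), so its removal widens the difference from CKD saline. Without the third library of both CKD groups the values were 1.31 (adjusted p = 0.0273) and 1.24 (adjusted p = 0.028). In that setting Parp1 passed as well in CKD JV001 against CKD saline, at -0.39 (edgeR adjusted p = 0.0403). These settings also changed the background, since edgeR called 3287 genes between the CKD groups without CKD saline library 3 and 3043 without both, against 0 from all libraries together. In CKD JV001 against sham JV001 it called 1612 and 1433, against 3. They leave CKD saline libraries 1 and 2, which differed from each other less than any other pair of replicates (chi-square per degree of freedom 8.31, against 23.3 to 356 for the other pairs). Fibroblast markers in these libraries were at 3.93 and 3.88 log2 CPM, against at least 5.99 in CKD JV001. In these settings the CKD groups thus also differ in cell markers, whose part in the Wrn difference was not tested.

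Fancd2 and Fanca belong to the Fanconi pathway, which unhooks cross-links between DNA strands. Fancd2 had 6, 0 and 9 counts with saline and 7, 4 and 9 with JV001 in sham mice, and 7, 25 and 6 with saline and 11, 12 and 17 with JV001 in CKD mice. In CPM these were 0.193, 0 and 0.233, then 0.216, 0.112 and 0.273, then 0.259, 0.825 and 0.238, then 0.348, 0.318 and 0.499, the 0 allowing up to 0.0796 CPM by counting error. CKD saline lay above sham saline and CKD JV001 above sham JV001 without overlap, with log2 differences of 1.62 (95% interval -0.48 to 3.73) and 0.94 (-1.11 to 3.00) and edgeR adjusted p of 0.941 and 0.502. The first difference was 0.81 without CKD saline library 2 and 2.24 without sham saline library 3. The saline groups were barely apart, with 0.238 CPM from 6 counts in CKD saline library 3 and 0.233 CPM from 9 counts in sham saline library 3. Fanca ranged from 0.998 to 2.80 CPM with overlapping groups. It shares 8.6% of its exon length with Zfp276, and Atr 5.6% with Gm16794, both on the opposite strand.

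Single-strand breaks and damaged bases are handled by Parp1 and Parp2, which mark the nick, Xrcc1, the scaffold, and Lig3, the ligase. Parp1 was at 55.2, 64.5 and 66.5 CPM with saline and 53.5, 52.0 and 54.2 with JV001 in sham mice, and 58.3, 58.6 and 38.7 with saline and 44.7, 46.1 and 28.3 with JV001 in CKD mice. Sham JV001 lay below sham saline, with a gap of 1 CPM, by -0.22 (SE 0.21, edgeR adjusted p = 0.9997), and CKD JV001 lay below sham JV001 by -0.42 (SE 0.21, edgeR adjusted p = 0.207). The lowest values were again the third libraries of the CKD groups. CKD JV001 differed from CKD saline by -0.39 (SE 0.21, edgeR adjusted p = 0.3), and by -0.57 without the third library of CKD saline and -0.19 without that of CKD JV001. Without the latter the difference from sham JV001 was -0.23.

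Lig3 was at 21.6, 25.9 and 23.4 CPM with saline and 26.9, 23.5 and 20.8 with JV001 in sham mice, and 17, 17.9 and 17.3 with saline and 15.4, 21.0 and 14.1 with JV001 in CKD mice. CKD saline was below sham saline without overlap, and only CKD JV001 library 2 reached into the sham range. The difference was -0.44 in CKD saline against sham saline (SE 0.17, edgeR adjusted p = 0.941), -0.50 in CKD JV001 against sham JV001 (SE 0.17, edgeR adjusted p = 0.122) and -0.47 pooled (95% interval -0.74 to -0.20, edgeR adjusted p = 0.08). DESeq2 placed the pooled value past the threshold, at -0.45 (adjusted p = 0.0214), as it did 1971 of all genes, against 71 by edgeR. Lig3 shares 27.9% of its exon length with Rffl on the opposite strand, and with no strand setting given, whether reads in that stretch were told apart is not known. Parp2 ranged from 11.9 to 17.4 CPM and Xrcc1 from 14.0 to 19.2, and neither differed between groups by more than 0.18 on the log2 scale.

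Ercc1 and Ercc4 form the nuclease that cuts beside bulky lesions. Ercc1 was at 20.3, 13.0 and 12.0 CPM with saline and 23, 16.4 and 15.1 with JV001 in sham mice, and 17.8, 17.8 and 26.1 with saline and 21.3, 20.2 and 35.6 with JV001 in CKD mice. The groups overlapped, the highest value was in CKD JV001 library 3, and the pooled CKD difference was 0.47 (SE 0.20, edgeR adjusted p = 0.165). Ercc1 shares 5.9% of its exon length with Cd3eap on the opposite strand. Ercc4, its partner, ranged from 7.75 to 11.9 CPM and differed by 0.01 in the pooled contrast (95% interval -0.29 to 0.32).

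Msh6 recognises mismatched bases, and Pcna is the clamp that ties repair to replication. Msh6 was at 9.77, 11.0 and 11.0 CPM with saline and 9.46, 10.4 and 11.0 with JV001 in sham mice, and 10.3, 13.9 and 10.6 with saline and 10.3, 9.23 and 14.3 with JV001 in CKD mice, with overlap throughout and a pooled difference of 0.13 (95% interval -0.17 to 0.44). Pcna was at 26.5, 23.7 and 26.9 CPM with saline and 27.5, 22.3 and 28.6 with JV001 in sham mice, and 33.3, 32.6 and 30.5 with saline and 30.2, 26.2 and 41.6 with JV001 in CKD mice. CKD saline was above sham saline without overlap, by 0.32 (SE 0.18, edgeR adjusted p = 0.941), and the pooled difference was 0.32 (95% interval 0.05 to 0.60, edgeR adjusted p = 0.137). Proliferating-cell markers summed to 69.6 to 82.2 CPM in CKD saline and 35.8 to 59.4 in sham saline, and their part in the Pcna difference was not tested.

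**Figure D4:**
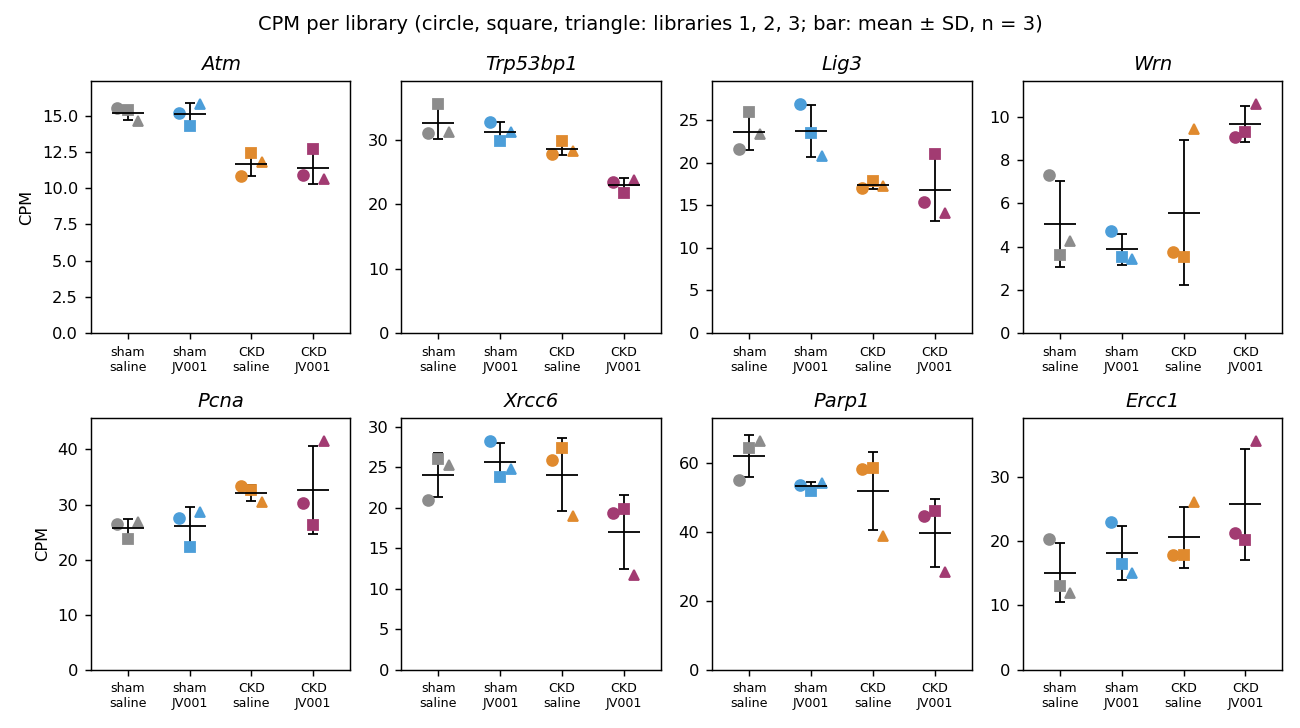
CPM per library for 8 genes, on axes from 0, with circles, squares and triangles for libraries 1, 2 and 3 of a group and the bar at the mean with its SD (n = 3). Atm is below 13 CPM in all CKD libraries and above 14 in all sham libraries, whereas in Wrn, Xrcc6, Parp1 and Ercc1 the triangle of CKD saline stands towards the CKD JV001 libraries.

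The question of CKD saline against sham saline is what the disease model did to these genes. Of the 31, 16 were higher and 15 lower in CKD saline, with a median log2 difference of 0.093 against 0.011 over all tested genes. On log2(FPKM + 0.1), which keeps the deposited scaling and 25 of the genes, limma gave 10 higher and 15 lower, with medians of -0.096 and -0.093. At an unadjusted p under 0.05, 0 were higher, against 2.15% of all genes, and Atm and Lig3 were lower, 2 of 31 against 2.81%. Groups did not overlap for 2 higher genes (Fancd2 and Pcna, against 4.12% of all genes) and 3 lower (Atm, Trp53bp1 and Lig3, against 6.44%). With 31 genes these counts are near the background.

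CKD JV001 against CKD saline asks what JV001 did in diseased mice. Here 11 genes were higher and 20 lower, with a median of -0.064 against 0.022 over all genes. This balance stayed at 11 higher and 20 lower with RLE factors and by DESeq2. It turned by limma on FPKM, which changes the test and the scaling together. On log2(FPKM + 1) without a filter limma gave 19 higher and 12 lower, with a median of 0.056 against 0.017 over all genes (58.7% higher). With the filter it gave 16 higher and 9 lower, with a median of 0.069 against 0.1 over all genes (60.1% higher). At an unadjusted p under 0.05 none was higher (background 9.29%) and Trp53bp1, Xrcc6 and Mre11a were lower, 3 of 31 against 8.75%. No gene was higher without overlap (background 8.22%), and Trp53bp1 and Mre11a were lower without overlap (background 6.04%). In sham JV001 against sham saline the count was 16 higher, 15 lower and a median of 0.006 against -0.006. None passed an unadjusted p of 0.05 in either direction (background 1.61% higher and 1.23% lower), and Xrcc4 alone was higher (background 5.69%) and Parp1 alone lower (background 6.71%) without overlap.

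CKD JV001 against sham JV001 compares disease and control under JV001 and shares libraries with each of the previous JV001 contrasts. There were 15 genes higher and 16 lower, with a median of -0.117 against 0.022. Wrn and Mdc1 were higher at an unadjusted p under 0.05, 2 of 31 against 14.8% of all genes. Trp53bp1, Xrcc4, Atm, Lig3, Xrcc6 and Nbn were lower, 6 of 31 against 12.7%. Libraries did not overlap for 3 higher genes (Mdc1, Wrn and Fancd2, background 22.9%) and 8 lower genes (Atm, Trp53bp1, Mre11a, Nbn, Xrcc5, Xrcc6, Xrcc4 and Parp1, background 20.1%). The interaction, which asks whether JV001 acted differently in CKD than in sham mice, was positive for 9 genes and negative for 22, with a median of -0.135 against -0.002 and a median SE of 0.30. That split was 11 positive and 20 negative with RLE factors and by DESeq2. It turned by limma on log2(FPKM + 1), to 19 positive and 12 negative without a filter, where 62.8% of all genes were positive. With the filter it was 17 and 8, where 64.1% of all genes were positive and their median was 0.114. The smallest interaction p values by edgeR were those of Wrn, Xrcc4 (-0.67, SE 0.34) and Xrcc6 (-0.59, SE 0.31), each at an edgeR adjusted p of 0.84.

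Pooled over both injections, 18 genes were higher in CKD and 13 lower, with a median of 0.013 against 0.005. No gene was higher in all 6 CKD than in all 6 sham libraries (background 0.64%), and Atm and Trp53bp1 were lower in all 6 (background 1.51%).

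**Figure D5:**
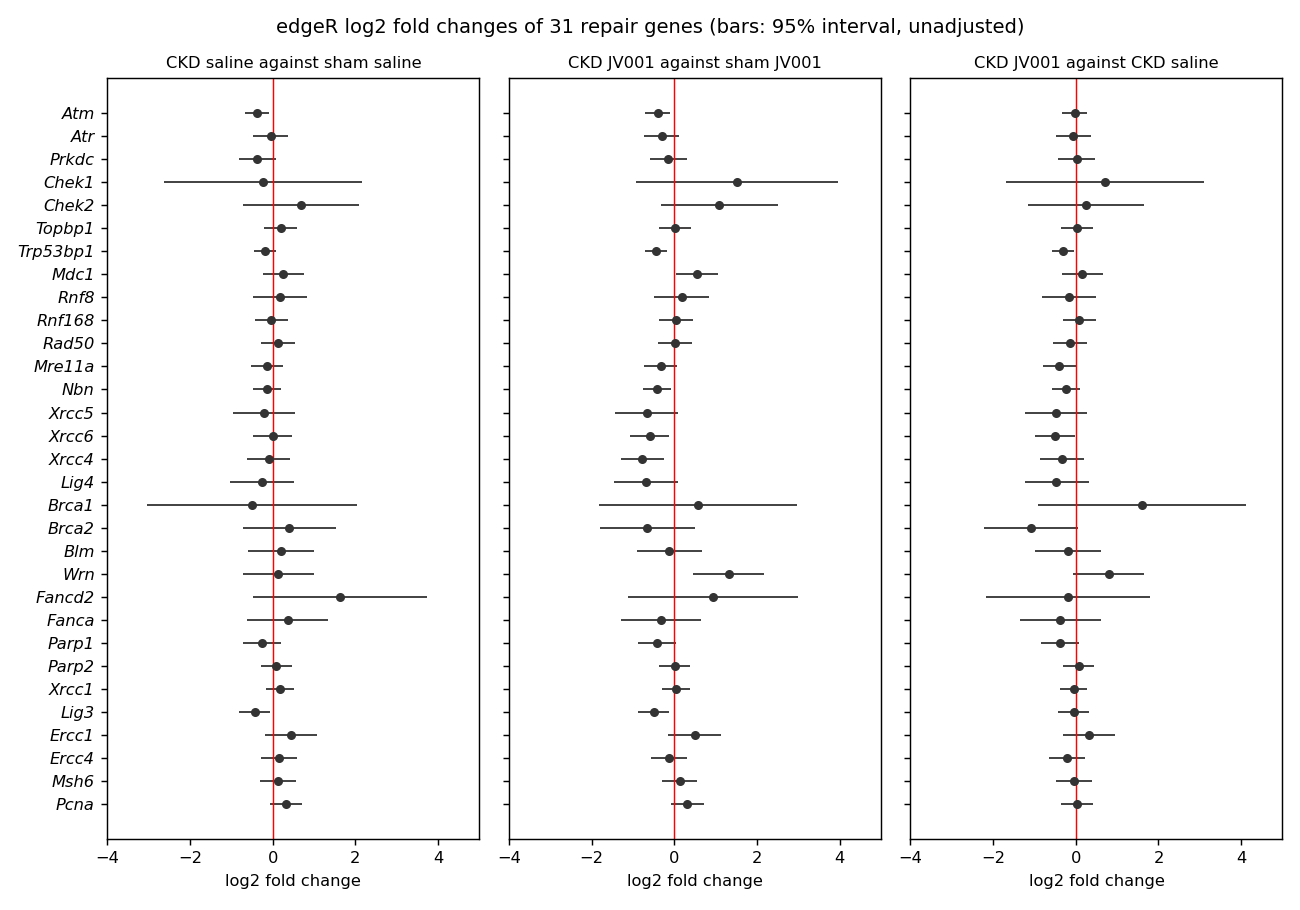
Log2 fold changes of the 31 genes with 95% intervals, 1 panel per comparison. Wrn has the highest interval bound clear of 0 in CKD JV001 against sham JV001 (0.46 to 2.18), and intervals of the scarce genes Chek1, Brca1 and Fancd2 reach over several log2 units.

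The wider pathway was read from other lists. Of 156 other repair and damage signalling genes in 9 lists, 149 were tested and none passed in any comparison by edgeR. In CKD JV001 against sham JV001, 10 were higher (6.71%, against 14.8% of all genes) and 17 lower (11.4%, against 12.7%) at an unadjusted p under 0.05, with a median of 0.02. In CKD saline against sham saline 3 were higher (2.01%, against 2.15%) and 1 lower (0.671%, against 2.81%). In CKD JV001 against CKD saline 7 were higher (4.7%, against 9.29%) and 13 lower (8.72%, against 8.75%). In sham JV001 against sham saline 1 was higher (0.671%, against 1.61%) and none lower (against 1.23%).

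The gene of each list with the smallest p over the contrasts of groups and their interaction is given here. Rif1, which acts with the product of Trp53bp1 at break ends, was at 22.9 ± 1.41 CPM in sham JV001 and 15 ± 1.28 in CKD JV001 (SD, n = 3), a difference of -0.61 (SE 0.15, edgeR adjusted p = 0.0937), and pooled over both injections -0.54 (SE 0.11, edgeR adjusted p = 0.0551). The saline means were 22.4 ± 2.07 in sham and 16.2 ± 2.58 in CKD mice, so Rif1, like Atm, had lower means in both CKD groups than in both sham groups. Among other break signalling genes 7 of 16 were lower and 0 higher at an unadjusted p under 0.05 in CKD JV001 against sham JV001, where 12.7% of all genes were lower and 14.8% higher. Of the other lists there, the checkpoint genes had 4 higher and 1 lower of 15, the recombination genes 2 higher and 0 lower of 25, and the nucleotide excision genes 0 higher and 4 lower of 20. End joining had 1 higher and 1 lower of 11, Fanconi 1 and 0 of 15, and base excision 1 and 0 of 17. Mismatch repair had 1 higher and 2 lower of 17, and damage tolerance 0 and 2 of 13. Ube2a, a ubiquitin-conjugating enzyme of damage tolerance, differed by -0.81 (SE 0.22, edgeR adjusted p = 0.0937) and Gtf2h3, a subunit of the excision factor that opens DNA, by -0.50 (SE 0.14, edgeR adjusted p = 0.1) in that comparison. Pooled, Gtf2h3 differed by -0.39 (SE 0.10, edgeR adjusted p = 0.0783). Faap20 of the Fanconi core differed by 0.69 (SE 0.26, edgeR adjusted p = 0.135).

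Against CKD saline, CKD JV001 had less Nhej1, a partner of the ligase complex, by -0.77 (SE 0.28, edgeR adjusted p = 0.276), and less Pole, a replicative polymerase, by -1.5 (SE 0.42, edgeR adjusted p = 0.276). CKD saline was above sham saline for Palb2, the partner of Brca2, at 1.24 ± 0.33 against 0.353 ± 0.164 CPM, and for Lig1, the replicative ligase, at 3.91 ± 1.59 against 1.87 ± 0.0844 (SD, n = 3), with edgeR adjusted p of 0.938 and 0.911. The pooled difference of Lig1 was 0.77 (SE 0.21, edgeR adjusted p = 0.0838). None of these differences passed.

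Trp53, which encodes p53, was at 15.6, 9.15 and 9.74 CPM with saline and 11.2, 10.8 and 9.60 with JV001 in sham mice, and 12.3, 9.01 and 25.9 with saline and 20.1, 17.6 and 46.9 with JV001 in CKD mice. Its high libraries were those with high Wrn, and the difference in CKD JV001 against sham JV001 was 1.42 (SE 0.44, edgeR adjusted p = 0.108). Of 22 p53 target genes tested, none passed in any comparison by edgeR, with 8 higher and 5 lower at an unadjusted p under 0.05 in CKD JV001 against sham JV001, where 14.8% of all genes were higher and 12.7% lower. Cdkn1a, the cell cycle inhibitor, was at 67.9, 17.2 and 8.19 CPM with saline and 81.4, 49.3 and 29.2 with JV001 in sham mice, and 21, 16.9 and 100 with saline and 34.3, 29.6 and 307 with JV001 in CKD mice. The third library of each CKD group stood above all others, and several sham libraries were above the remaining CKD libraries. Mdm2, the ligase that degrades p53, was at 53.5 to 56.4 CPM in sham JV001 and 42.5 to 46.5 in CKD JV001 (-0.29, SE 0.12, edgeR adjusted p = 0.163). Plk3, a stress kinase, was at 13.2 ± 4.35 CPM in CKD saline and 4.20 ± 2.82 in sham saline (SD, n = 3), a difference of 1.65 (SE 0.43, edgeR adjusted p = 0.812), and pooled it differed by 1.36 (SE 0.30, edgeR adjusted p = 0.0613).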

How the data were processed

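The authors deposited read counts per gene symbol, whole numbers without normalization, and FPKM values. Per the submitters' processing notes, fastp, HISAT2, HTSeq and the build GRCm39 were used; no version, annotation or strand setting is stated there. The deposited FPKM follow from the counts with 1 length per gene (100% of 10249 genes with at least 50 counts in each library, relative tolerance 0.001), and were used for levels between genes. Per the labels' protocols, 1.3 ug of RNA entered each library.

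All 12 libraries entered 1 fit in edgeR 4.0.16 under R 4.3.3. Library sizes were scaled by TMM, genes kept by filterByExpr at a minimum count of 10, and p-values from the quasi-likelihood test adjusted by Benjamini-Hochberg with a threshold of 0.05. Log2 CPM used a prior count of 2. The contrast pooled over injections was added after the data were seen. Alternatives were RLE factors, other filters, DESeq2 1.42.0, limma 3.58.1 on log2(FPKM + 1) or log2(FPKM + 0.1), subsets of groups, a replicate block and left-out libraries. Deviations from the group means of libraries with the same number correlated at 0.3, 0.29 and 0.49 between CKD saline and CKD JV001, so these numbers were taken to pair the libraries of that comparison, a reading from the data and not from the labels. The third libraries of both CKD groups stood apart, which by itself can raise all 3 correlations, so these do not establish pairs. In each other comparison at least 1 pair was at or under 0.1 (lowest -0.39), and the numbers were not taken as pairs. The paired fit of the CKD groups alone was added after the data were seen. Columns were assigned to samples from their group letters and numbers, with C taken as CKD saline. Named genes were all 31, with every library's value for 16 fixed genes and for the 3 with the smallest p in each contrast, and 1 gene per other list, that with the smallest p over the contrasts. The members and lists were chosen with earlier results of these data known. The test was checked on simulated counts with changes placed in the CKD saline group only. The simulation held no library that stands apart, so it does not cover that feature of the data. Of the listed genes, Atrip, H2ax, Hist1h1b, Trac and Ighm had no row under these symbols.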

Additional observations from a re-analysis of the deposited data

How the results depend on the processing

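The number of repair genes past the adjusted threshold was 0 in each comparison by edgeR and in every setting other than those named here. In CKD JV001 against CKD saline it was 3 of 30 without the third library of both CKD groups (Xrcc6, Wrn and Parp1), beside 3043 of 15285 genes. It was 0 to 2 when 1 library was left out. The 2 of 31 were Xrcc6 and Wrn without CKD saline library 3, beside 3287 of 15459 genes. For CKD JV001 against sham JV001 it was 3 of 31 by DESeq2 (Trp53bp1, Xrcc4 and Wrn), beside 1768 of 22379 genes. With only the groups compared it was 1 of 30 (Wrn), beside 792 of 14373 genes. It was 2 of 30 without the third library of both CKD groups, beside 1433 of 15285 genes. With 1 library left out it was 0 to 2, the 2 of 31 without CKD saline library 3, beside 1612 of 15459 genes. In CKD against sham over both injections it was 3 of 31 by DESeq2 (Atm, Trp53bp1 and Lig3), beside 1971 of 22379 genes. With the replicate block over all libraries it was 0 in every comparison. With the replicate block in the CKD groups only it was 1 of 29 (Xrcc6) in CKD JV001 against CKD saline, beside 2850 of 14289 genes. DESeq2 also called more of all genes, 1768 against 3 in CKD JV001 against sham JV001 and 1971 against 71 in the pooled contrast; the cause was not tested. Counts over all genes moved in other settings too. With only the groups compared CKD JV001 against sham JV001 had 792 calls and, under RLE factors, the stricter filter or limma, 7 to 74, and the pooled contrast had 490 without the third library of both CKD groups, 208 with the stricter filter, 164 by limma on log2(FPKM + 1), 31 with the replicate block and 0 to 94 with 1 library left out. Every repair gene with an unadjusted p under 0.05 kept its sign in all settings that gave it a value. Of 3955 values of single genes, 259 changed sign, none of them past the threshold. Genes under 10 counts in most libraries (Chek1, Fancd2) are limited by depth.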
